A study of Mus musculus with 8 samples.

Results

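The genes described here are those of prostaglandin E2 synthesis and breakdown, together with annexin A1. Arachidonate is cut from membrane phospholipids by cytosolic phospholipase A2 (Pla2g4a), converted to prostaglandin H2 by the cyclooxygenases Ptgs1 and Ptgs2, turned into prostaglandin E2 by the synthases Ptges and Ptges2, and inactivated by the dehydrogenase Hpgd. Anxa1, a calcium-dependent phospholipid-binding protein, is known as an inhibitor of phospholipase A2 activity and as an anti-inflammatory ligand of formyl peptide receptors. In many inflamed tissues glucocorticoids lower Ptgs2 mRNA and raise Anxa1, and both effects are textbook parts of their anti-inflammatory action. The members were the probe sets whose single gene symbol in the platform annotation is 1 of these 7 genes. This gave 11 probe sets for 6 genes, out of 45101 probe sets in the table and 18193 genes that a probe set names alone. No probe set used here carries the symbol Ptgs1, which is not analysed here.

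Expression was measured on 8 arrays of 7438 cells, a mouse mammary line, with 2 arrays in each of 4 groups. Cells received 100 nM dexamethasone, a synthetic glucocorticoid (Dex), 100 nM estradiol (E2), or 100 nM of each (Dex+E2), all for 2 hours, or were left untreated. Every group, the untreated one included, carried a GFP-tagged glucocorticoid receptor (GFP-GR) and a cherry-tagged estrogen receptor (Cherry-ER) under a tetracycline-regulated promoter. Both were switched on by removing tetracycline 24 hours before treatment, in serum stripped of hormones, so the responses are those of cells with introduced receptors. Since no label used here gives the 2 arrays of a group separate cultures, the spread behind each p-value is that between these samples and may be technical.

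For 2 arrays, the second E2 and the first Dex+E2 replicate, the description field speaks of a chromatin experiment. Title and treatment label nevertheless give each its group here, and results that rest on them are given with and without both. Without both, the E2 and the Dex+E2 group each keep a single array, so the spread comes from the untreated and Dex arrays alone. Replicate arrays correlated at 0.996 to 0.998, and the array least like the rest was Dex+E2 replicate 2, at a mean r of 0.9951. All 6 glucocorticoid targets used to check the treatment (Fkbp5, Per1, Tsc22d3, Sgk1, Zfp36 and Dusp1) had a probe set higher with Dex. The check is not particular to Dex, since Per1 was also higher with E2 (1.97; limma, adjusted p = 0.000589). Of the epithelial marker genes, 5 of 10 had a probe set over the median level of the array. Of the mesenchymal marker genes it was 6 of 8. Signals of different probe sets are not comparable, so these levels do not settle the cell type.

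With E2, 0 of 54 probe sets of the epithelial, mesenchymal, immune and endothelial or adipose markers passed the threshold in limma, where 0.0355% of all probe sets did. At an unadjusted p under 0.05 there were 4 of 16 epithelial probe sets, where 5.42% of all were. All 4 were lower with E2, namely Elf5 1419555_at (-0.33), Krt14 1423935_x_at (-0.20) and 2 of Krt8 (-0.21 and -0.28). The mean over the 16 epithelial probe sets was 5.31 and 5.32 on the E2 arrays, against 5.41 and 5.37 on the untreated arrays. The other lists had 1 of 18 mesenchymal, 0 of 11 immune and 1 of 9 endothelial or adipose probe sets at that level. The part of these markers in the E2 result for Ptgs2 was not tested. With Dex+E2, 1 of 18 mesenchymal probe sets was lower (Col1a2 1446326_at, -1.08) and 1 of 9 endothelial or adipose probe sets was higher (Fabp4 1417023_a_at, 1.81). In that comparison 0.844% of all probe sets were called, and the other probe sets of Col1a2 and Fabp4 did not pass. Both named probe sets also passed with Dex (-0.80 and 2.65), where 1 of 18 and 2 of 9 did, beside 0.924% of all. Their part in the results below was not tested. In such bulk RNA, fewer cells of a type and less RNA per cell cannot be told apart.

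Ptgs2, the inducible cyclooxygenase, was the 1 gene of the 6 measured with a probe set at an adjusted p under 0.05 in limma. It was lower with E2 on 1 of its 2 probe sets and lower with Dex+E2 on both. Its promoter window is shown because Ptgs2 carries the finding, and that of Anxa1 because it is the member best known as a glucocorticoid-induced gene. Each window runs from 250 bases before to 50 after the RefSeq start site (GRCm38.p6), at chr1:150099781-150100080 on the plus strand for Ptgs2 and chr19:20390622-20390921 on the minus strand for Anxa1. Capitals mark the motifs found.
Ptgs2: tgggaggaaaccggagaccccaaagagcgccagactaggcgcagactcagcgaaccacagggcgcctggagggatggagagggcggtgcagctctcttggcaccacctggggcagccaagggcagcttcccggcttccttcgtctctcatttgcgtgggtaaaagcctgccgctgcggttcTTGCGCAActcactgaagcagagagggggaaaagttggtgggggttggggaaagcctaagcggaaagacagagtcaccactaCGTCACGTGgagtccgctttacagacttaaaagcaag
Anxa1: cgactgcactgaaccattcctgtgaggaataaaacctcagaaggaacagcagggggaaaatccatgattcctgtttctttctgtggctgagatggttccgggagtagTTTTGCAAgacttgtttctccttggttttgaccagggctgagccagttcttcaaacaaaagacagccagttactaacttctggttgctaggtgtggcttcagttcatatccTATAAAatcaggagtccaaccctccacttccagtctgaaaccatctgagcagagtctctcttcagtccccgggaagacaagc
The motifs searched on both strands were an E-box (CACGTG), a CRE core (TGACG), a C/EBP site (TTGCNNAA), an AP-1 site (TGANTCA), an NF-kappaB site, the single repeat of a glucocorticoid site (AGAACA) and of an estrogen site (AGGTCA), both full palindromes of those repeats, and a TATA box (TATAAA). The Ptgs2 window held a C/EBP match from -69 to -62, a motif found in 10.8% of 32851 promoter windows of the same length. It also held a CRE core on the opposite strand from 14 to 18, overlapping an E-box from 17 to 22. These letters occur in 20.81% and 7.15% of all windows. The Anxa1 window held a TATA box from -32 to -27 (13.62% of windows) and a C/EBP match on the opposite strand from -143 to -136. Neither window held the glucocorticoid or estrogen letters, the single repeats of which occur in 18.97% and 16.26% of windows. A match describes the letters alone.

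Ptgs2 is read by 2 probe sets, 1417262_at and 1417263_at, both designed from the same transcript record, so they are not independent measurements of different RNAs. On 1417263_at, the log2 signal was 5.87 and 5.82 in Dex-treated cells, 5.50 and 5.28 in E2-treated cells, 5.41 and 5.33 in Dex+E2 cells, and 6.29 on both untreated arrays, which hold the identical value there. The untreated pair thus adds no spread to the standard errors and p-values of this probe set. All 6 treated arrays lay below both untreated arrays, and the E2 and Dex+E2 arrays lay below the Dex arrays. On 1417262_at, the values were 9.52 and 9.46 with Dex, 9.44 and 9.10 with E2, 9.35 and 8.96 with Dex+E2, against 9.92 and 9.90 in untreated cells. Here too every treated array was below the untreated ones, while the 2 arrays within the E2 group and within the Dex+E2 group lay further apart. The group means ran in the same order on both probe sets, untreated highest, then Dex, E2 and Dex+E2, and the last 2 groups overlapped on both.

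**Figure D1:**
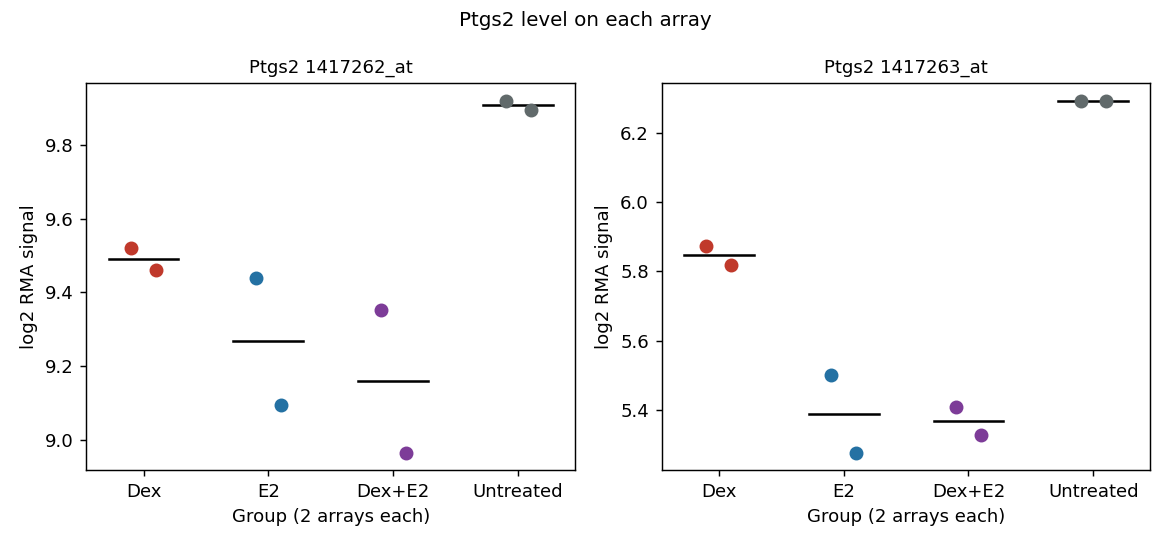
Log2 RMA signal of the 2 Ptgs2 probe sets (1 panel each, with its own axis) on each array, by group. Points are arrays and bars are means of 2 arrays; on 1417263_at the treated arrays sit between 5.28 and 5.87, all below the untreated arrays at 6.29.

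With E2 alone, Ptgs2 fell by 0.90 ± 0.096 log2 units (limma standard error, n = 2 arrays a group) on 1417263_at, a level 1.87-fold lower than in untreated cells (limma, Benjamini-Hochberg adjusted p = 0.0108). The mean signal of that probe set lies at percentile 51.7 of all, and both E2 arrays are below the median level of 5.631, while 1417262_at lies at percentile 88.3. The difference on 1417262_at was -0.64 ± 0.14 and did not pass the threshold, an adjusted p under 0.05 over 45037 probe sets (limma, adjusted p = 0.386, unadjusted p = 0.00096). This made 1 of 11 member probe sets called with E2, where 0.0355% of all probe sets were called and 0.00222% were called lower. The number of all probe sets called lower with E2 was 1, so the Ptgs2 probe set 1417263_at was the only one in the table. The call was lost without untreated replicate 1 (adjusted p = 0.240), without untreated replicate 2 (0.247), without E2 replicate 2 (0.148), with the E2 and untreated arrays fitted alone (0.0510) and without both arrays whose descriptions name another experiment (0.0594, with a difference of -0.79). With the mean of the 2 probe sets as the gene's value, Ptgs2 was 0.77 log2 units below untreated, at an adjusted p of 0.0350 over genes in limma. With the brightest probe set standing for each gene, 1417262_at was used and the adjusted p was 0.239.

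With both hormones Ptgs2 was lower on both probe sets. It fell by 0.92 ± 0.096 log2 units on 1417263_at (1.90-fold lower; limma, adjusted p = 0.000949) and by 0.75 ± 0.14 on 1417262_at (1.68-fold lower; adjusted p = 0.0389). These were 2 of 11 member probe sets, and 0.844% of all probe sets were called in that comparison, 0.373% lower. The call on 1417263_at held in 15 of 15 alternative settings run, with adjusted p from 0.000543 to 0.0211. That on 1417262_at was lost in 6 of 17, among them those without untreated replicate 1 (adjusted p = 0.290), untreated replicate 2 (0.300), either Dex array (0.0939) and Dex+E2 replicate 2 (0.216). Without both arrays whose descriptions name another experiment, the differences were -0.96 and -0.94. These rest on a single Dex+E2 array, replicate 2, the array least like the rest.

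Dex alone left Ptgs2 at -0.45 ± 0.096 log2 units relative to untreated cells on 1417263_at (limma, adjusted p = 0.0819) and at -0.42 ± 0.14 on 1417262_at (adjusted p = 0.514). Neither passed, so 0 of 11 member probe sets were called with Dex in limma, against 0.924% of all probe sets, and 2 of the 11, both Ptgs2, had an unadjusted p under 0.05. The 95% intervals ran from -0.66 to -0.23 and from -0.73 to -0.11. Over the alternative settings the adjusted p for 1417263_at ran from 0.0390 to 0.569, and it passed in 3 of 15, namely with dim probe sets left out (0.0454), with the Dex and untreated arrays fitted alone (0.0390) and without both arrays whose descriptions name another experiment (0.0390).

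The direct comparisons place Dex+E2 next to each single treatment. Dex+E2 minus Dex was -0.48 ± 0.096 log2 units on 1417263_at (limma, adjusted p = 0.494) and -0.33 ± 0.14 on 1417262_at (adjusted p = 0.996), and all Dex+E2 arrays lay below all Dex arrays on both. That comparison called 0 of 11 member probe sets and 0.00666% of all, and its arrays did not overlap on 2 of the 11 and on 31.3% of all. At an unadjusted p under 0.05 in limma there were 2 of the 11, both Ptgs2. Dex+E2 minus E2 was -0.02 ± 0.096 on 1417263_at, with a 95% interval from -0.23 to 0.19, and -0.11 ± 0.14 on 1417262_at, and the arrays overlapped. It called 0 of 11 members, with 0 at an unadjusted p under 0.05 in limma, and 0.335% of all. Its arrays did not overlap on 1 of the 11, Ptges2, and on 39.9% of all. The sign of both turned to positive without E2 replicate 1 (0.09 and 0.06) and without Dex+E2 replicate 2 (0.02 and 0.08). The interaction (the response to Dex beside E2 less the response to Dex alone) was 0.43 ± 0.14 on 1417263_at and 0.31 ± 0.20 on 1417262_at. It did not pass on either (limma, adjusted p = 0.881 and 0.883), so a smaller Dex effect in the presence of E2 is not shown. The 95% interval ran from 0.12 to 0.73 on 1417263_at (limma, unadjusted p = 0.0105) and from -0.13 to 0.75 on 1417262_at. The interaction called 0 of 11 member probe sets and 0.00222% of all. It had 1 of the 11 at an unadjusted p under 0.05 in limma, where 5.46% of all were. Averaged over both states of Dex, the E2 effect on 1417263_at was -0.69 ± 0.068 (limma, adjusted p = 0.00998), 1 of 11 member probe sets where 0.0533% of all were called and 0.00444% were called lower, and that on 1417262_at was -0.49 ± 0.099 (adjusted p = 0.234). The first of these was lost without either untreated array and without either Dex array, at adjusted p from 0.0998 to 0.147. The mean Dex effect was -0.23 ± 0.068 and -0.26 ± 0.099 on the 2 probe sets and did not pass (limma, adjusted p = 0.210 and 0.374), where 1.37% of all probe sets were called. Both had an unadjusted p under 0.05 in limma (0.00628 and 0.0237), 2 of the 11, where 10.4% of all had.

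**Figure D2:**
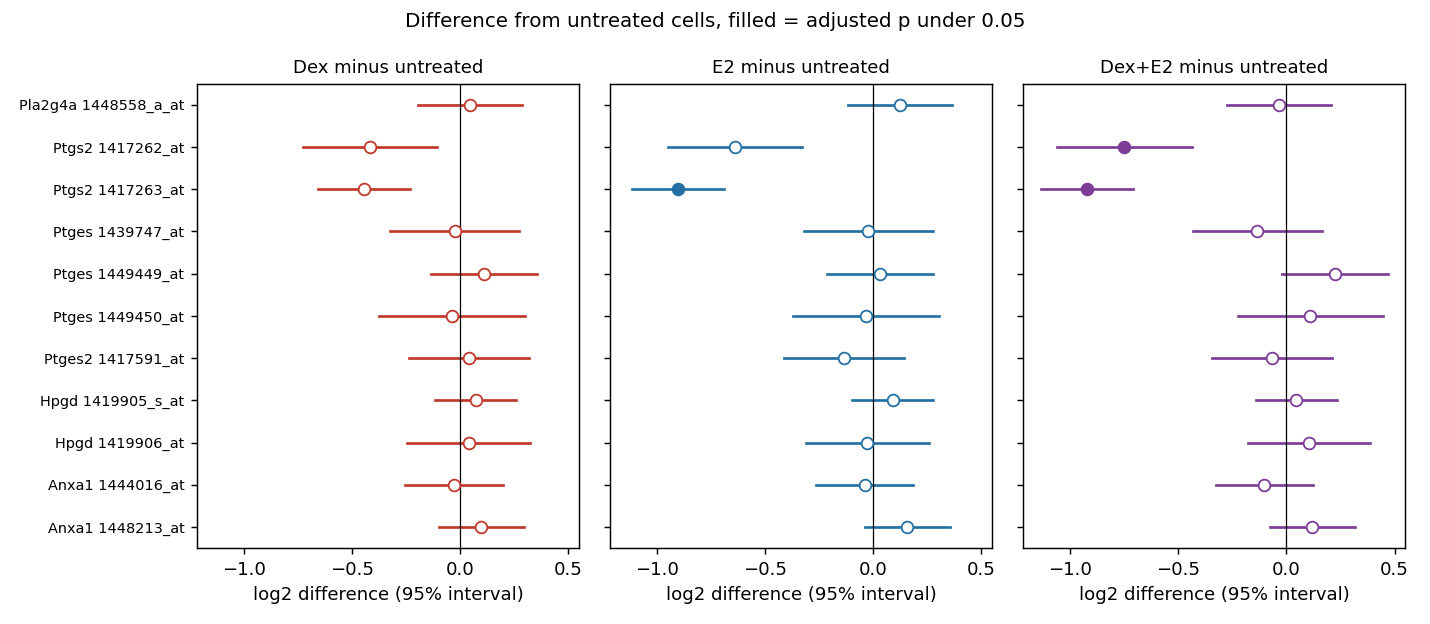
Difference from untreated cells on the log2 scale (x axis) for each of the 11 probe sets (rows) with Dex, E2 and Dex+E2 (panels). Points are limma estimates, lines 95% intervals, and filled points have an adjusted p under 0.05; the filled points are Ptgs2 1417263_at with E2 (-0.90) and both Ptgs2 probe sets with Dex+E2 (-0.92 and -0.75).

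Anxa1, the member best known as glucocorticoid-induced, did not pass the threshold with any treatment. On 1448213_at, which lies at percentile 99.3 of mean signal, the values were 12.99 and 13.04 with Dex, 13.02 and 13.13 with E2, 13.02 and 13.06 with Dex+E2, against 12.86 and 12.98 in untreated cells. The treated arrays were all above the untreated ones, by little. The difference with Dex was 0.10 ± 0.089 log2 units (limma, adjusted p = 1), with a 95% interval from -0.10 to 0.30. The upper end of that interval corresponds to 1.23-fold higher. It was 0.16 ± 0.089 with E2 and 0.12 ± 0.089 with Dex+E2, and neither passed. The second Anxa1 probe set, 1444016_at, is dim (4.70 to 4.90 over the 8 arrays) and its differences from untreated lay between -0.10 and -0.03.

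Pla2g4a, the calcium-activated phospholipase that releases arachidonate, had log2 signals of 9.55 and 9.54 with Dex, 9.67 and 9.57 with E2, and 9.62 and 9.30 with Dex+E2, against 9.51 and 9.49 in untreated cells. The Dex and E2 arrays lay just above the untreated ones, and the 2 Dex+E2 arrays lay on either side of them. The differences were 0.04 ± 0.11 with Dex, 0.12 ± 0.11 with E2 and -0.04 ± 0.11 with Dex+E2, none past the threshold, and the last was 0.12 without Dex+E2 replicate 2.

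The prostaglandin E synthases did not pass the threshold in any of the 8 comparisons. Ptges, the inducible microsomal enzyme usually coupled to Ptgs2, was read by 3 probe sets at percentiles 44.7 to 53 of mean signal, with differences from untreated between -0.13 and 0.22. The highest, on 1449449_at with Dex+E2, came from values of 5.79 and 6.05 in Dex+E2 cells, against 5.75 and 5.64 in untreated cells (0.22 ± 0.11; limma, adjusted p = 0.654). Within the Dex+E2 group, replicate 2 was the higher array on all 3 probe sets. Ptges2, a second membrane-associated synthase, had values of 8.29 and 7.97 with Dex, 7.94 and 7.97 with E2, 8.01 and 8.04 with Dex+E2, against 7.95 and 8.23 in untreated cells. Its spread between untreated replicates (SD 0.20, n = 2) exceeded each of its differences from untreated, which were 0.04, -0.14 and -0.07.

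Hpgd, which oxidises and inactivates prostaglandins, was dim, at 4.11 to 4.25 log2 units on 1419905_s_at and 3.40 to 3.81 on 1419906_at (percentiles 21.3 and 8.73). Its differences from untreated lay between -0.03 and 0.10, none past the threshold. Over all 9 probe sets other than those of Ptgs2 and all 8 comparisons, 72 values ran from -0.20 to 0.22 log2 units, 0 had an unadjusted limma p under 0.05, and the lowest adjusted p was 0.511. In the comparisons with untreated their 95% intervals together spanned 0.741-fold to 1.38-fold, so larger changes of these signals lie outside the intervals.

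**Figure D3:**
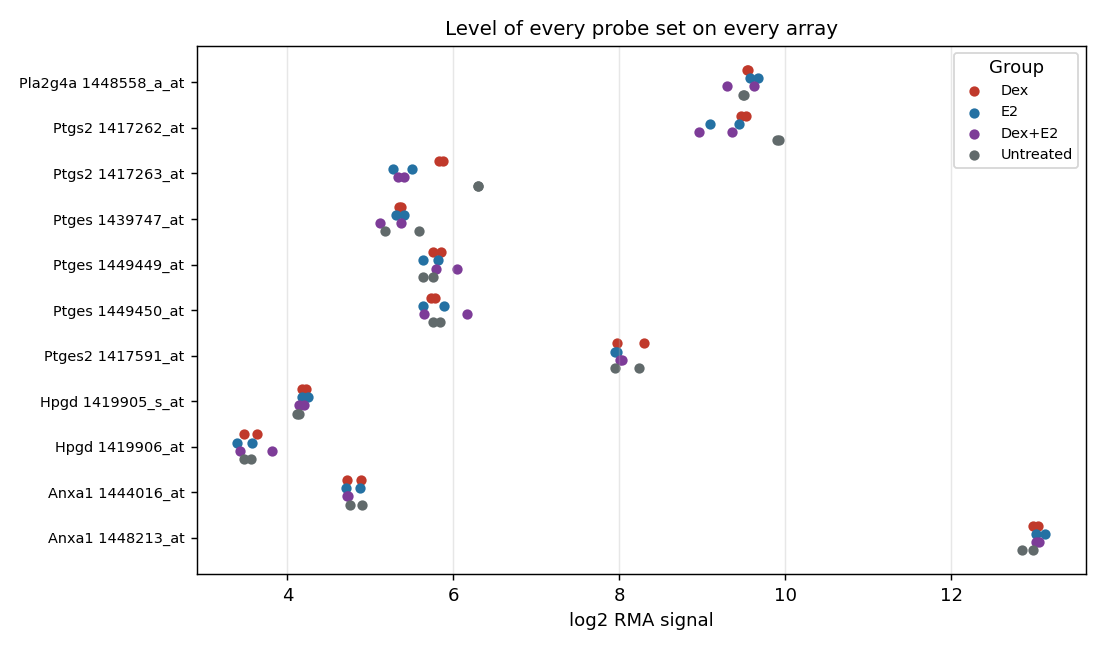
Log2 RMA signal (x axis) of the 11 probe sets (rows) on every array; each point is 1 array, coloured by group. On the 2 Ptgs2 rows every treated array lies below both untreated arrays; positions of different rows are not comparable, since each probe set has its own response.

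The arrays of Dex and untreated cells did not overlap on 6 of 11 member probe sets, where 34.7% of all probe sets did not overlap. For E2 against untreated the count was 5 of 11, beside 34.9%, and for Dex+E2 against untreated 6 of 11, beside 33%. The median difference over the 11 probe sets was 0.04 log2 units with Dex, -0.03 with E2 and -0.04 with Dex+E2, against 0.0014, -0.01 and 0.0035 over all probe sets. These 3 comparisons share the untreated arrays.

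In the wider eicosanoid pathway no probe set passed the threshold. Of 67 listed genes, other than the members, of arachidonate release, prostanoid synthesis, receptors, transport, inactivation and the lipoxygenase arm, 61 were measured by 102 probe sets, and 0 passed in each of the 8 comparisons in limma. The shares called over all probe sets were 0.924% with Dex, 0.0355% with E2 and 0.844% with Dex+E2. At an unadjusted p under 0.05 there were 3 of the 102 with Dex, 2 with E2 and 2 with Dex+E2, against 5.69%, 5.42% and 8.16% of all, and the median differences were -0.00047, -0.01 and 0.03. The receptors for prostaglandin E2, singled out after their values were seen, were dim. Ptger1 averaged 3.47 and 5.46 log2 units on its 2 probe sets, Ptger2 3.56, Ptger3 3.88 and 4.01, and Ptger4 2.95 and 4.72. Dex+E2 against E2 had 11 of the 102 pathway probe sets at an unadjusted p under 0.05 in limma, beside 11.8% of all. The mean Dex effect had 4 of them, beside 10.4% of all. Among the genes with the smallest p, none of which passed, Hpgds, the haematopoietic prostaglandin D synthase, was at 0.27 ± 0.12 with Dex+E2 relative to untreated (limma, adjusted p = 0.588). Plaa, a phospholipase A2 activating protein, had a mean Dex effect of -0.27 ± 0.097 (adjusted p = 0.347) and Pla2g4e, a relative of Pla2g4a, one of 0.26 ± 0.080 (0.258). Ptgdr, the prostaglandin D2 receptor, was at 0.25 ± 0.085 in Dex+E2 relative to E2 (0.338), and Ptgfr, the prostaglandin F receptor, at 0.34 ± 0.14 (0.388). In the same comparison Ptgds, the lipocalin-type prostaglandin D synthase, was at 0.22 ± 0.11 (0.453), Ptgr2, a prostaglandin reductase, at -0.57 ± 0.25 (0.409), and Cyp4f14 at 0.22 ± 0.11 (0.474). The lipoxygenase gene Alox8 was at 0.33 ± 0.11 (0.344) and the leukotriene receptor gene Cysltr1 at 0.33 ± 0.14 (0.403).

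Of 10 measured annexins other than Anxa1, read by 21 probe sets, 0 passed in any comparison in limma, with 0, 1 and 2 probe sets at an unadjusted p under 0.05 for Dex, E2 and Dex+E2 against untreated, where 5.69%, 5.42% and 8.16% of all probe sets were. Nearest were Anxa7 1438764_at, -0.63 ± 0.16 with Dex+E2 (adjusted p = 0.156), and Anxa6 1429247_at, 0.50 ± 0.14 (0.277). Among 8 listed genes of formyl peptide receptors, S100 partners of annexins and Trpm7, a channel kinase that phosphorylates annexin A1, 5 were measured. These were Fpr2, Fpr-rs3, Fpr-rs4, S100a10 and Trpm7. Of their 10 probe sets, 1 rose with Dex, where 0.924% of all were called. It belongs to S100a10, the partner of annexin A2, and was 0.77 ± 0.12 higher on 1439348_at (limma, adjusted p = 0.0115). The other 2 S100a10 probe sets, with mean signals of 12.96 and 12.97, were at 0.02 ± 0.085 and 0.0084 ± 0.087, so the probe sets of that gene disagree. The formyl peptide receptor genes Fpr2, Fpr-rs3 and Fpr-rs4, likewise named after their values were seen, averaged 5.04, 5.05 and 5.08 log2 units and did not pass.

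Of 18 measured genes known to control Ptgs2 transcription or mRNA decay, 7 had a probe set higher with Dex and 3 had one lower. These were 16 of 53 probe sets, where 0.924% of all probe sets were called. The list was chosen with earlier results of these data known, so the contrast with that share is not an independent test. The other 37 did not pass, and the median over the 53 was -0.0075 log2 units. Dusp1 and Zfp36 are also among the glucocorticoid targets used to check the treatment. With E2 the count was 1 of 53, beside 0.0355%. Dusp1, a phosphatase that inactivates the MAP kinases, was 2.54 ± 0.14 log2 units higher with Dex and 2.23 ± 0.14 higher with Dex+E2, and 0.24 ± 0.14 with E2 (limma, adjusted p = 0.942). Zfp36, which promotes decay of AU-rich mRNAs such as that of Ptgs2, rose by 2.06 ± 0.16 with Dex and 2.32 ± 0.16 with Dex+E2, and stood at 1.00 ± 0.16 with E2 without passing (limma, adjusted p = 0.0954). Its relatives went opposite ways with Dex: Zfp36l1 1450644_at fell by 1.31 ± 0.12 and Zfp36l2 1437626_at rose by 1.37 ± 0.13, though the 2 other Zfp36l2 probe sets, at 0.40 ± 0.098 and -0.04 ± 0.13, did not pass. Nfkbia, the inhibitor of NF-kappaB, rose by 1.68 ± 0.12 with Dex, by 0.95 ± 0.12 with E2 (limma, adjusted p = 0.0245) and by 1.72 ± 0.12 with Dex+E2 on 1438157_s_at, 1 of its 5 probe sets called with E2. Cebpb, whose product binds C/EBP sites, rose by 1.18 ± 0.12 with Dex and 1.17 ± 0.12 with Dex+E2 on 1418901_at, and stood at 0.64 ± 0.12 with E2 without passing. These 6 regulators were named for the smallest adjusted p in limma, each in the mean Dex effect. Their larger estimated difference from untreated with Dex than with E2 was therefore favoured by the choice. On both Ptgs2 probe sets the estimated difference was larger in size with E2. E2 was not tested against Dex, for Ptgs2 or for the regulators.

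**Figure D4:**
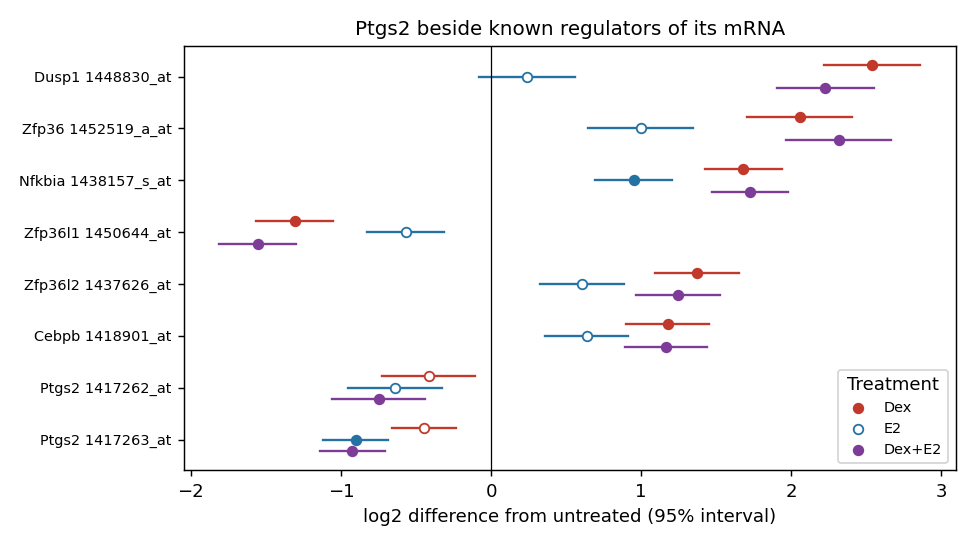
Difference from untreated on the log2 scale (x axis) with Dex, E2 and Dex+E2 for 6 regulators of Ptgs2 mRNA and the 2 Ptgs2 probe sets (rows). The 6 regulators were chosen by their mean Dex effect, which favours larger differences with Dex. Points are limma estimates, lines 95% intervals, filled points have an adjusted p under 0.05; Dusp1 stands at 2.54 with Dex and 0.24 with E2, while Ptgs2 1417263_at stands at -0.45 with Dex and -0.90 with E2.

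The genes whose pattern over the 8 arrays was most like that of Ptgs2 1417263_at, among 794 probe sets with a single symbol, a mean over the median and group means spanning over 0.5 log2 units, were Cited2, a coregulator that binds CBP and p300 (Pearson r = 0.957, n = 8), Id3, an inhibitor of basic helix-loop-helix factors (0.906), Cdc42ep2, an effector of the GTPase Cdc42 (0.882), and Ccn1, a secreted matricellular protein (0.871). These correlations are a description over arrays that fall in 4 groups. Choosing genes by them favours group means and differences like those of Ptgs2. Cited2 averaged 7.87 ± 0.14 with Dex, 7.54 ± 0.35 with E2, 7.505 ± 0.22 with Dex+E2, and 8.36 ± 0.046 in untreated cells (SD, n = 2 each), the same order of means as Ptgs2. Its differences from untreated were -0.48 with Dex, -0.81 with E2 and -0.85 with Dex+E2, of which the last passed (limma, adjusted p = 0.0397). Id3 differed by -0.42, -0.79 and -1.30 in the same order of treatments, and the last passed (adjusted p = 0.00154). Cdc42ep2 and Ccn1 did not pass with any treatment.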

How the data were processed

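Per the submitters' processing notes, the authors made the deposited log2 values with RMA in Affymetrix Expression Console, with no version given. RMA corrects background, equalises array distributions and summarises the probes of each probe set, which compresses changes of dim probe sets and makes levels of different probe sets incomparable. Gene names are those of the platform annotation: of 45037 tested, 34945 have 1 gene symbol, 932 several and 9160 are not listed. The 64 array control probe sets were left out.

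Sample titles gave the groups and the replicate numbers. A model with a mean for each of 4 groups was fitted to all 8 arrays (limma 3.58.1, R 4.3.3; 4 residual and 6.29 prior degrees of freedom), with Benjamini-Hochberg adjustment over all 45037 and a threshold of 0.05. Differences between 2 groups had a median standard error of 0.102, and the number of arrays limits the precision. An exact permutation test of 2 against 2 arrays cannot go below 0.333. The script was tested on simulated data.

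The rule for named genes takes all members, from each list up to 6 genes past the threshold (otherwise the 2 with the smallest p), and the 4 genes most like a called member. The members and lists were chosen with earlier results of these data known. Promoter windows are from RefSeq (GRCm38.p6), which matched 7 of 7 members in 8 windows. Alternatives were the probe sets of a gene, a filter on dim probe sets, normalization, the prior, the samples fitted, the replicate block, leaving out each array and, chosen after seeing the data, leaving out both arrays whose descriptions name another experiment.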

Additional observations from a re-analysis of the deposited data

How the results depend on the processing

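With 2 arrays a group, 1 array can decide a call, and the small differences of Hpgd, Ptges and Ptges2 have no settled sign. Only Hpgd is dim on all its probe sets, and Ptgs2 1417263_at, which carries the E2 call, lies near the median level. The causes of the changes below were not tested. Fits on 1 value a gene count genes rather than probe sets. The Ptgs2 calls and what they lose stand beside the results.

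With the brightest probe set of each gene, 267 genes were called with Dex and 404 for the mean Dex effect, while the member calls were 0 with E2, 1 with Dex+E2 and 0 for the mean E2 effect. Averaging the probe sets of each gene, the counts were 269 with Dex, 237 with Dex+E2, 100 for Dex+E2 against E2 and 365 for the mean Dex effect, with 1 member called with Dex+E2, and Ptges was at 0.015 with Dex. With dim probe sets left out, 1 member probe set was called with Dex and 0 of all for Dex+E2 against Dex. Quantile normalization called 25 with E2. A trended and robust prior called 46 with E2, 5 for Dex+E2 against Dex, 6 for the interaction and 76 for the mean E2 effect. With only the compared groups fitted, the member calls were 1 with Dex, 0 with E2 and 1 with Dex+E2, and all calls were 222 with Dex+E2, 0 for Dex+E2 against Dex and 16 for Dex+E2 against E2.

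Without both arrays whose descriptions name another experiment, an alternative chosen after seeing the data, the member calls were 1 with Dex, 0 with E2, 1 for the mean Dex effect (Ptgs2 1417262_at, adjusted p = 0.0134 in limma) and 2 for the mean E2 effect. All calls were 1648 with Dex+E2, 243 for Dex+E2 against Dex, 530 for Dex+E2 against E2, 9 for the interaction, 1045 for the mean Dex effect and 59 for the mean E2 effect. With E2 the signs turned for Ptges 1449450_at (0.089), Hpgd 1419906_at (0.062) and Anxa1 1444016_at (0.045), and the interaction of Ptgs2 1417262_at became -0.058.

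Leaving out each array in turn, all calls ranged over 170 to 498 with Dex, 3 to 37 with E2, 169 to 1436 with Dex+E2, 0 to 168 for Dex+E2 against Dex, 30 to 1974 for Dex+E2 against E2, 0 to 29 for the interaction, 349 to 1666 for the mean Dex effect and 3 to 71 for the mean E2 effect. Member calls ranged over 0 to 1 with E2, 1 to 2 with Dex+E2 and 0 to 2 for the mean E2 effect. Signs turned for these differences from untreated, none of them called. With Dex, Ptges 1439747_at ran from -0.23 to 0.18, Ptges 1449450_at from -0.080 to 0.0023, Ptges2 from -0.12 to 0.20, Hpgd 1419906_at from -0.040 to 0.12 and Anxa1 1444016_at from -0.11 to 0.053. With E2, Ptges 1439747_at ran from -0.23 to 0.18, Ptges 1449449_at from -0.055 to 0.12, Ptges 1449450_at from -0.16 to 0.089, Ptges2 from -0.28 to 0.0067, Hpgd 1419906_at from -0.12 to 0.062 and Anxa1 1444016_at from -0.13 to 0.045. With Dex+E2, Ptges 1439747_at ran from -0.34 to 0.069, Ptges 1449450_at from -0.15 to 0.37, Ptges2 from -0.21 to 0.075, Hpgd 1419906_at from -0.083 to 0.29 and Pla2g4a from -0.19 to 0.12. For Dex+E2 minus E2, Ptgs2 ran from -0.30 to 0.084 on 1417262_at and from -0.13 to 0.091 on 1417263_at.

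With the replicate number as a block, Ptgs2 1417263_at had adjusted p of 0.0278 with E2 and 0.00238 with Dex+E2, and 1417262_at had 0.0229 with Dex+E2 (limma). The block changed no member call, and all calls with Dex numbered 372. Deviations of same-numbered arrays correlated above 0 among 3 groups (0.160 for Dex and untreated, 0.312 for E2 and untreated, 0.235 for Dex and E2) and below 0 for Dex+E2 with each (-0.248 with untreated, -0.105 with Dex, -0.194 with E2). No label says what a number shares and not every pair exceeded 0.1, so the numbers were not taken to pair the samples.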
